A study of Mus musculus with 4 samples.

Results

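The 9 genes described here carry glucocorticoid and corticotropin-releasing hormone (CRH) signalling in the hippocampus. They were chosen by symbol, and their gene IDs in the deposited tables follow in parentheses. They are the glucocorticoid receptor Nr3c1 (14815), the mineralocorticoid receptor Nr3c2 (110784), the peptide Crh (12918) with its receptor Crhr1 (12921) and its binding protein Crhbp (12919), and the glucocorticoid-induced genes Fkbp5 (14229), Sgk1 (20393), Tsc22d3 (14605) and Plin4 (57435). All 9 were listed with reads in every library, out of 18492 genes listed in any, and all 9 were among the 13186 genes compared, those averaging 1 RPKM or more across libraries (RPKM is the read count scaled to gene length and library total). Crh passed that filter only through the library labelled Ogg1-/-, its highest: its mean was 1.10 RPKM, and 0.938 RPKM without that library.

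Hippocampal RNA of 6-month-old C57BL/6 mice was sequenced in 4 libraries, 1 for each genotype: Ogg1-/- (Ogg1 KO), Mutyh-/- (Mutyh KO), the knockout of both genes (DKO, written Ogg-/- Mutyh-/- in the labels) and wild type (WT). Ogg1 excises 8-oxoguanine, an oxidised form of guanine, from DNA, and Mutyh excises adenine that has been paired with it. The sex of the mice, how many mice gave each library and the design of the knockout alleles are not given in the sources used here. With 1 library per genotype there is no test and no replicate check, so each fold below is a ratio of reads per library total, and its 95% interval covers counting error only and compares libraries, not genotypes.

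Corticosterone, the main glucocorticoid of the mouse, binds both receptors; Nr3c2 binds it with the higher affinity and is abundant in hippocampal neurons. Ligand-bound receptors enter the nucleus and bind glucocorticoid response elements, among other sites, which raises transcription of genes such as Fkbp5, Sgk1, Tsc22d3 and Plin4. Crh is the peptide that starts the hormonal stress response in the hypothalamus, and in the hippocampus it is made mainly by interneurons; Crhr1 is its main receptor there, and Crhbp sequesters the peptide.

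One promoter window is shown for each of the 4 induced genes, because those genes are known receptor targets. Where a gene has several windows, the one printed was chosen for its match: the full element for Sgk1 and a hexamer for Tsc22d3. RefSeq promoter windows of build GRCm38.p6 ran from 250 bases before to 50 bases after a start site. For 7 of the 9 genes, 14 windows were searched. No window of Nr3c1 or Crh was searched. For the 9 genes 1 chromosome was left out of the search, but it was not left out of the shares of all windows. Both strands were searched for the palindromic glucocorticoid response element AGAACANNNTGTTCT, for its hexamer AGAACA or TGTTCT, which is also part of the palindrome, for the cyclic AMP response element TGACGTCA and for its pentamer TGACG or CGTCA, which is also part of that element. The full glucocorticoid element was found in 1 of the 14 windows, at a start site of Sgk1 in the window chr10:21993640-21993939 on the plus strand. That exact 15-letter spelling is rare: 3 of 32851 promoter windows held it, or 0.00913%. The window of Tsc22d3 at chrX:140600473-140600772 on the minus strand held 1 hexamer, the only one among the gene's 3 windows. The windows of Plin4 at chr17:56109733-56110032 and of Fkbp5 at chr17:28486100-28486399, both on the minus strand, held neither the hexamer nor the full element. The sequences below run 5′ to 3′, with capitals at glucocorticoid hexamers and the full element.
Sgk1: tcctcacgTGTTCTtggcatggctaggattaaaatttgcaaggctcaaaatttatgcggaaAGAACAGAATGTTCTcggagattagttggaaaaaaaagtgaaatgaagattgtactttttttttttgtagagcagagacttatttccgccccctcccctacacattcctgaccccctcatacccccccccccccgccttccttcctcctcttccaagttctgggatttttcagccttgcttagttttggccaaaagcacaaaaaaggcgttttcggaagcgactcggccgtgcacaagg
Tsc22d3: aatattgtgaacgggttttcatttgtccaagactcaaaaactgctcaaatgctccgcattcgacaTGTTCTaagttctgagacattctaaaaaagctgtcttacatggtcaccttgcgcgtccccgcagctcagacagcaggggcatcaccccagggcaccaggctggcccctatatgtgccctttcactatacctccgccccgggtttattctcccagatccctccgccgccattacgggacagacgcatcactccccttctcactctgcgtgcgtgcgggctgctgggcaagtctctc
Fkbp5: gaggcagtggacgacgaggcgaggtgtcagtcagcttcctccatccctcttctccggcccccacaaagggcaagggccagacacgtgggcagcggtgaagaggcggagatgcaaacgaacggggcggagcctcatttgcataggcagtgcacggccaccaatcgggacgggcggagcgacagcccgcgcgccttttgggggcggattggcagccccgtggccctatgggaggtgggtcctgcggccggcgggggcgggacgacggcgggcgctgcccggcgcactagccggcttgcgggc
Plin4: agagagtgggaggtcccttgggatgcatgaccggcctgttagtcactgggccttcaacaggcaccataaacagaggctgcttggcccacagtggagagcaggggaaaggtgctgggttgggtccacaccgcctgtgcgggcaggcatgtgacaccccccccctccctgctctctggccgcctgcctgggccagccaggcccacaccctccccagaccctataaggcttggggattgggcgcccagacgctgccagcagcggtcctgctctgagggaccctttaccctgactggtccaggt
In the Sgk1 window the full element reads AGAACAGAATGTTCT and begins at position -189 from that window's start site, which is 1 of 6 listed for the gene. The Tsc22d3 hexamer begins at position -185. Over the 14 windows, 4 held a glucocorticoid hexamer, against 19.0% of all windows. Apart from the Tsc22d3 window these were all windows of Sgk1, so they do not stand for separate genes. By gene, Sgk1 and Tsc22d3 were the only ones of the 7 with a hexamer, against 21.3% of all genes with windows. None held the full cyclic AMP element, which 1.79% of all windows held, and 3 held its pentamer, against 20.8% of all windows. A match is a description of letters, and a window without one says nothing about binding.

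Library totals ran from 17.0 to 18.2 M reads. Ogg1 had 130 reads in the library labelled Ogg1 KO, 81 in Mutyh KO, 103 in DKO and 94 in WT. Its read total therefore went against the label, although reads covered 47.2% and 46.4% of the gene's length in the libraries labelled Ogg1 KO and DKO, against 81.5% in Mutyh KO and 86.7% in WT. Mutyh had 35 reads in Ogg1 KO, 15 in Mutyh KO, 20 in DKO and 39 in WT. Summed markers of hippocampal principal neurons were 1781 RPM (reads scaled to the library total) in Ogg1 KO, 1847 in Mutyh KO, 1876 in DKO and 2027 in WT. Of the 12 markers, 2, 3 and 6 were above WT in Ogg1 KO, Mutyh KO and DKO. Choroid plexus markers summed to 5020 RPM in the library labelled Ogg1 KO, 5064 in Mutyh KO, 2609 in DKO and 549 in WT, with 15 of 15 higher in each. The Mutyh KO library held 10307 reads of the X-linked Xist, against 23 in Ogg1 KO, 29 in DKO and 14 in WT, and it also held 289 reads of the Y-linked Ddx3y, against 724 in Ogg1 KO, 884 in DKO and 816 in WT. The part of these differences in the results below was not tested, and in such bulk RNA fewer cells of a type and less RNA per cell cannot be told apart.

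Among the receptors, Nr3c2 was the most highly expressed of the 9 genes in every library and the least variable. Its level was 40.7 RPKM in the library labelled Ogg1 KO, 38.3 in Mutyh KO, 42.6 in DKO and 39.9 in WT, from 2687 to 3171 reads. The fold over WT was 1.02 (95% interval 0.969 to 1.08) for Ogg1 KO, 0.961 (0.912 to 1.01) for Mutyh KO and 1.07 (1.02 to 1.12) for DKO. Its highest library stood 1.11-fold above its lowest, and between neighbours in the order of levels every interval held 1, while DKO over Mutyh KO, its extremes, was 1.11 (1.06 to 1.17).

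Nr3c1 was higher in each knockout library than in WT by a small amount. It had 2057 reads and 19.0 RPKM in the library labelled Ogg1 KO, 1971 reads and 18.1 RPKM in Mutyh KO, and 2098 reads and 18.2 RPKM in DKO, against 1850 reads and 16.1 RPKM in WT. The fold over WT was 1.18 (1.11 to 1.26) for Ogg1 KO, 1.13 (1.06 to 1.20) for Mutyh KO and 1.13 (1.06 to 1.20) for DKO. These 3 folds share the 1 WT library, and folds of this size were common: 25.8%, 38.2% and 34.7% of the compared genes lay at least as far from WT in the Ogg1 KO, Mutyh KO and DKO comparisons. Among the knockout libraries themselves, the intervals between neighbours held 1.

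The balance of the receptors, as a ratio of RPKM levels of Nr3c2 over Nr3c1, was 2.14 (2.02 to 2.26) in the library labelled Ogg1 KO, 2.12 (1.996 to 2.24) in Mutyh KO, 2.35 (2.22 to 2.48) in DKO and 2.48 (2.34 to 2.63) in WT. The mineralocorticoid receptor was thus the higher in all 4 libraries. The intervals of both single-knockout libraries lay below that of WT, while the DKO interval overlapped it.

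**Figure D1:**
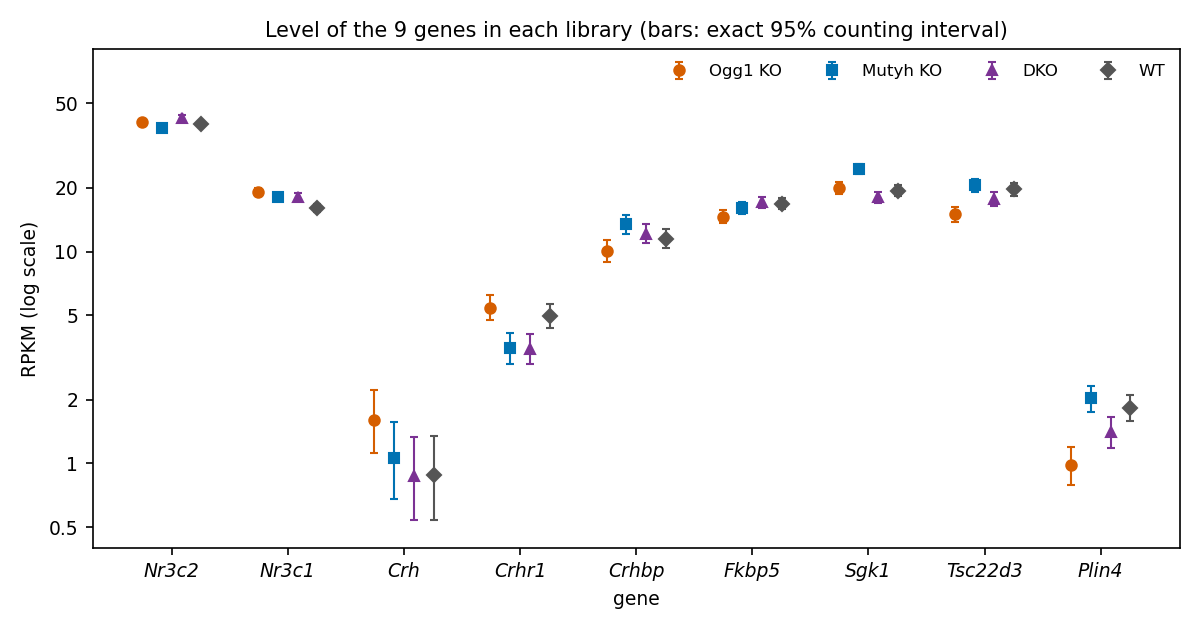
Level of each of the 9 genes in RPKM on a log axis, 1 point for each library in the order Ogg1 KO, Mutyh KO, DKO and WT, with bars for the exact 95% counting interval. Nr3c2 lies highest, between 38.3 and 42.6 RPKM, and Crh lowest in 3 of the libraries, while Plin4 drops to 0.980 RPKM in the library labelled Ogg1 KO.

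In the CRH system, the peptide was near the limit of what these libraries measure. Crh had 36 reads in the library labelled Ogg1 KO, 24 in Mutyh KO, 21 in DKO and 21 in WT, which is 1.60, 1.06, 0.874 and 0.878 RPKM in that order. The library labelled Ogg1 KO was the highest, at a fold of 1.82 (1.04 to 3.29) over WT, a distance from WT that 1.79% of compared genes reached. Crh was among the compared genes only through that library, so its high level there was favoured by the filter. The fold was 1.21 (0.644 to 2.28) for Mutyh KO and 0.995 (0.517 to 1.92) for DKO over WT, so neither could be told from WT at this depth. DKO over Ogg1 KO was 0.546 (0.303 to 0.960). Markers of GABAergic interneurons summed to 1333 RPM in the library labelled Ogg1 KO, 1246 in Mutyh KO, 1172 in DKO and 1284 in WT, with 7, 5 and 5 of 12 markers above WT and none at 0. Hypothalamic markers were scarce, at 3.64 RPM in Ogg1 KO, 10.03 in Mutyh KO, 5.33 in DKO and 2.87 in WT, and Otp was at 0 in WT. Among those with enough reads for a fold, 5 of 6, 6 of 7 and 5 of 8 were above WT in the knockout libraries in that order. Most of these reads came from Pmch (67) and Hcrt (62) in Mutyh KO, and from Pomc (38) and Avp (21) in DKO. Pomc is also on the list of pituitary markers.

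Crhr1, the receptor, fell into a high and a low pair of libraries. It had 225 reads and 5.44 RPKM in the library labelled Ogg1 KO, 146 reads and 3.51 RPKM in Mutyh KO, 154 reads and 3.48 RPKM in DKO, and 219 reads and 4.98 RPKM in WT. Both libraries with the Mutyh knockout were thus below both libraries without it. The fold over WT was 1.09 (0.904 to 1.32) for Ogg1 KO, 0.704 (0.567 to 0.873) for Mutyh KO and 0.6999 (0.566 to 0.864) for DKO, and 6.87% and 5.56% of compared genes were at least as far from WT in the Mutyh KO and DKO comparisons. DKO over Ogg1 KO was 0.640 (0.518 to 0.789), and DKO over Mutyh KO was 0.994 (0.787 to 1.255).

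Crhbp, which binds the peptide outside cells, had 291 reads and 10.1 RPKM in the library labelled Ogg1 KO, 391 reads and 13.4 RPKM in Mutyh KO, 375 reads and 12.1 RPKM in DKO, and 354 reads and 11.5 RPKM in WT. Its levels were in the reverse order to those of Crhr1 for the single knockouts: the fold over WT was 0.875 (0.747 to 1.02) for Ogg1 KO and 1.17 (1.01 to 1.35) for Mutyh KO, and 1.05 (0.909 to 1.22) for DKO. Between neighbours in its order every interval held 1, and DKO over Ogg1 KO was 1.21 (1.03 to 1.41). Crhbp RPKM exceeded Crh RPKM by 6.29-fold (4.44 to 9.16) in the library labelled Ogg1 KO, 12.7-fold (8.39 to 20.02) in Mutyh KO, 13.9-fold (8.95 to 22.7) in DKO and 13.1-fold (8.45 to 21.4) in WT. The Ogg1 KO ratio was the lowest, and its interval overlapped that of each other library.

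**Figure D2:**
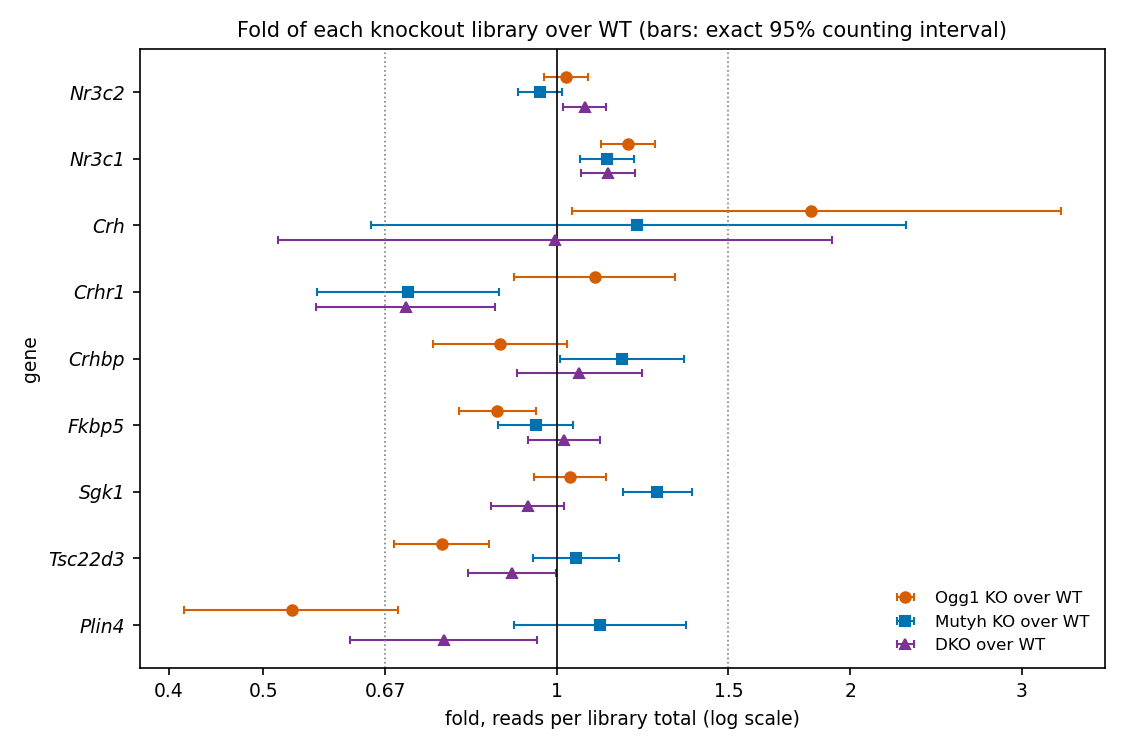
Fold over WT of each of the 9 genes on a log axis for the Ogg1 KO, Mutyh KO and DKO libraries, with exact 95% counting intervals and dotted lines at 1.5-fold. Crh and Plin4 in the library labelled Ogg1 KO are the points past a dotted line, at 1.82 and 0.535.

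The 4 glucocorticoid-induced genes did not move as 1 block. Plin4, a coat protein of lipid droplets, differed most between libraries of all 9 genes, with its highest library 2.07-fold above its lowest. It had 96 reads and 0.980 RPKM in the library labelled Ogg1 KO, 200 reads and 2.03 RPKM in Mutyh KO and 147 reads and 1.40 RPKM in DKO, against 191 reads and 1.83 RPKM in WT. Both libraries with the Ogg1 knockout were below both libraries without it. The fold over WT was 0.535 (0.414 to 0.687) for Ogg1 KO, a distance that 1.69% of compared genes reached, 1.11 (0.903 to 1.36) for Mutyh KO and 0.766 (0.614 to 0.955) for DKO. DKO over Mutyh KO was 0.692 (0.556 to 0.861), and DKO over Ogg1 KO was 1.43 (1.10 to 1.87). In RefSeq GRCm38.p6, Plin4 overlaps the protein-coding gene Hdgfl2, which had 1330 reads in Ogg1 KO, 1322 in Mutyh KO, 1290 in DKO and 1281 in WT, so the assignment of reads between the overlapping genes is uncertain.

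Tsc22d3, the X-linked gene of the leucine zipper protein GILZ, had 547 reads and 15.0 RPKM in the library labelled Ogg1 KO, 756 reads and 20.5 RPKM in Mutyh KO and 691 reads and 17.7 RPKM in DKO, against 764 reads and 19.6 RPKM in WT. Its order of libraries was the same as that of Plin4, with the library labelled Ogg1 KO lowest and DKO next. The fold over WT was 0.762 (0.682 to 0.852) for Ogg1 KO, 1.05 (0.944 to 1.16) for Mutyh KO and 0.900 (0.811 to 0.999) for DKO. DKO over Mutyh KO was 0.861 (0.775 to 0.956), and DKO over Ogg1 KO was 1.18 (1.05 to 1.32). Distances at least as large were seen for 10.9% of compared genes in Ogg1 KO over WT and 19.1% in DKO over Mutyh KO. The Mutyh KO library held 10307 Xist reads, and the part of that difference in the level of this X-linked gene was not tested.

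Fkbp5, a cochaperone that lowers the affinity of the glucocorticoid receptor for its hormone, had 877 reads and 14.6 RPKM in the library labelled Ogg1 KO, 967 reads and 16.0 RPKM in Mutyh KO and 1097 reads and 17.1 RPKM in DKO, against 1074 reads and 16.8 RPKM in WT. It was lowest in the library labelled Ogg1 KO, at a fold over WT of 0.869 (0.794 to 0.951), which 33.9% of compared genes reached or passed. The fold was 0.951 (0.871 to 1.04) for Mutyh KO and 1.02 (0.934 to 1.11) for DKO, and neighbouring libraries could not be told apart. DKO over Ogg1 KO, its highest library over its lowest, was 1.17 (1.07 to 1.28).

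Sgk1, a kinase that regulates ion channels and transporters, followed another order. It had 1059 reads and 19.9 RPKM in the library labelled Ogg1 KO, 1310 reads and 24.5 RPKM in Mutyh KO and 1024 reads and 18.0 RPKM in DKO, against 1092 reads and 19.3 RPKM in WT. The Mutyh KO library stood above the other 3, whose neighbours in the order could not be told apart, although DKO over Ogg1 KO was 0.904 (0.829 to 0.986). The fold over WT was 1.03 (0.948 to 1.12) for Ogg1 KO, 1.27 (1.17 to 1.37) for Mutyh KO and 0.933 (0.856 to 1.02) for DKO, and DKO over Mutyh KO was 0.736 (0.678 to 0.800), a distance that 5.05% of compared genes reached. Sgk1 is the gene whose promoter window holds the full response element printed above. The Mutyh KO library is also the one with the high Xist count. Meningeal markers summed to 683 RPM there, against 491 in Ogg1 KO, 451 in DKO and 221 in WT. Igf2 was the largest part of these sums, with 7914 reads in Mutyh KO, 5430 in Ogg1 KO, 4388 in DKO and 1797 in WT. Of the other meningeal markers, Slc13a4, Col1a1, Col1a2 and Dcn had higher RPKM in Mutyh KO than in DKO. Aldh1a2, Slc6a13 and Lum had higher RPKM in DKO. The part of these differences in the Sgk1 level was not tested.

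Few of the 9 genes passed 1.5-fold in any comparison, and the shares of all compared genes that did are given beside them. In the library labelled Ogg1 KO over WT, 2 of the 9 were at least 1.5-fold apart, Crh higher and Plin4 lower, where 4.69% of compared genes were (3.27% higher and 1.41% lower). In Mutyh KO over WT none of the 9 was, where 5.25% of genes were, and in DKO over WT none was, where 4.19% were. DKO over Ogg1 KO had 2 of the 9 past 1.5-fold, Crh and Crhr1, both lower, where 3.49% of genes were past in either direction and 1.61% were lower. DKO over Mutyh KO had none, where 2.73% of genes were. The count of 2 for Ogg1 KO over WT holds Crh, whose lower bound of 1.04 is close to 1. Crh passed the filter only through Ogg1 KO, so the filter favoured its being counted in this comparison and in DKO over Ogg1 KO. With a pseudocount of 1 RPKM added before the ratio, 0 of the 9 passed 1.5-fold in Ogg1 KO over WT or in DKO over Ogg1 KO.

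Intervals that excluded 1 were more frequent but also common among all genes. They were found for 5 of the 9 in Ogg1 KO over WT (37.6% of compared genes), 4 in Mutyh KO over WT (36.3%) and 5 in DKO over WT (33.4%). For DKO over Ogg1 KO the count was 7 of the 9 (34.0% of genes), and for DKO over Mutyh KO it was 4 (23.2%). Counting intervals narrow with depth, and depth was not matched between the 9 genes and all genes. The contrast in shares is therefore not a result about the 9. Crh, which passed the filter only through Ogg1 KO, is among those counted in Ogg1 KO over WT and in DKO over Ogg1 KO. A few bounds lay close enough to 1 for another scaling to move them across it. For Tsc22d3, DKO over WT held 1 with reduced library totals (0.819 to 1.01). For Nr3c2, Mutyh KO over WT lay below 1 with TMM scaling (0.893 to 0.992), and DKO over Ogg1 KO lay above 1 with reduced totals (1.003 to 1.11). The median log2 fold of the 9 genes was 0.03 for Ogg1 KO, 0.15 for Mutyh KO and -0.01 for DKO over WT, beside 0.02, 0.01 and -0.00 for all compared genes.

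**Figure D3:**
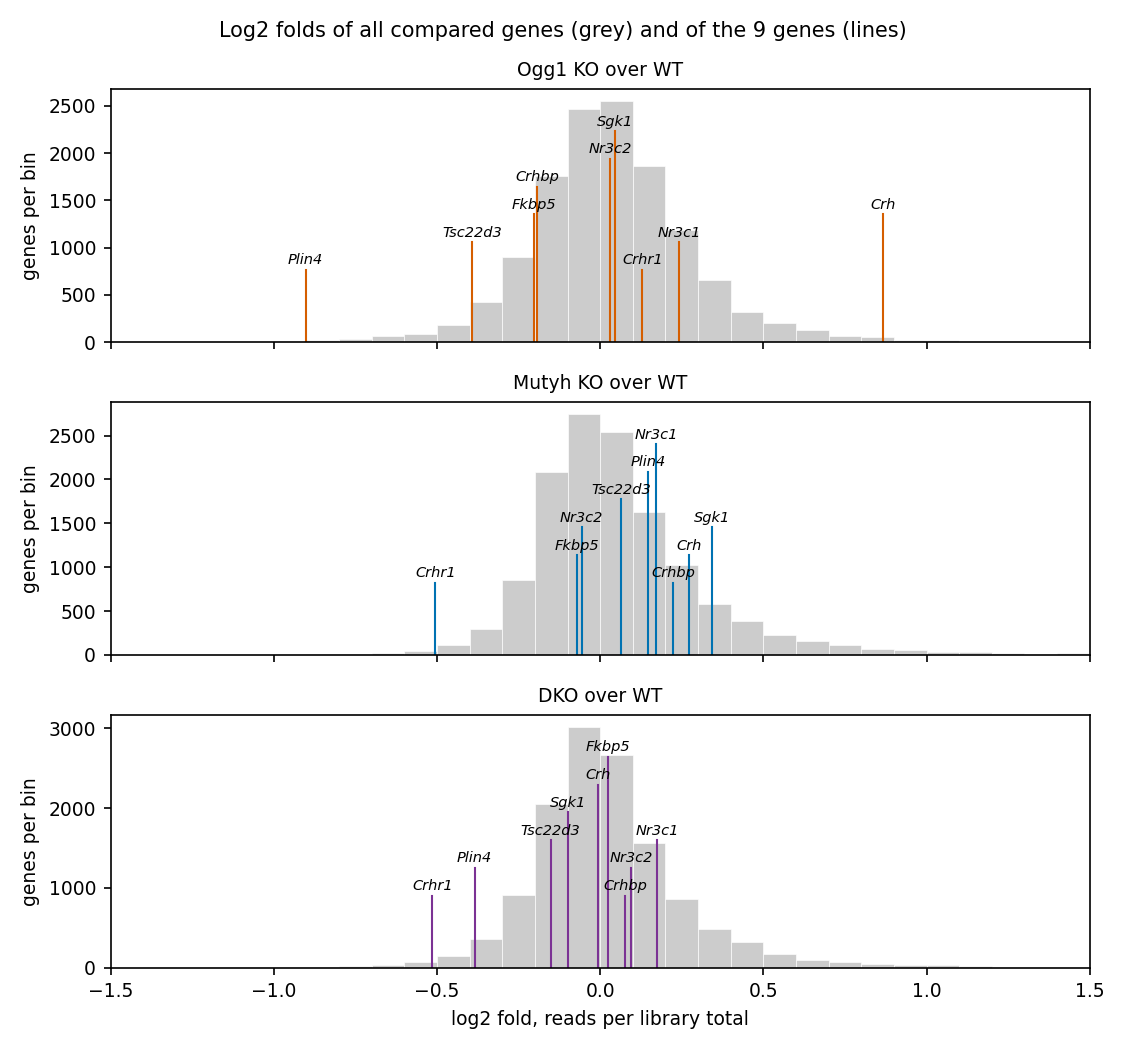
Distribution of the log2 fold over WT across all compared genes, 1 panel for each knockout library, with lines at the values of the 9 genes. Most lines fall within the bulk of the distribution, and Crh at 0.87 and Plin4 at -0.90 in the Ogg1 KO panel lie in its tails. Crh is among the compared genes only through its Ogg1 KO level of 1.60 RPKM.

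The 4 libraries allow the loss of each gene to be read in 2 ways, from pairs that share no library: Ogg1 loss as Ogg1 KO over WT and as DKO over Mutyh KO, and Mutyh loss as Mutyh KO over WT and as DKO over Ogg1 KO. For Ogg1 loss, 2 of the 9 genes had both intervals below 1, Tsc22d3 and Plin4, and none had both above, where 1.95% of compared genes had both below and 2.39% both above. For Mutyh loss, Crhr1 had both intervals below 1, where 4.68% of genes did, and Crhbp had both above, where 3.81% did. Crhbp rests on bounds close to 1: its lower bounds were 1.01 and 1.03. With TMM scaling (a trimmed mean of gene-wise ratios) its lower bound for Mutyh KO over WT was 0.987, so Crhbp no longer had both intervals above 1.

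**Figure D4:**
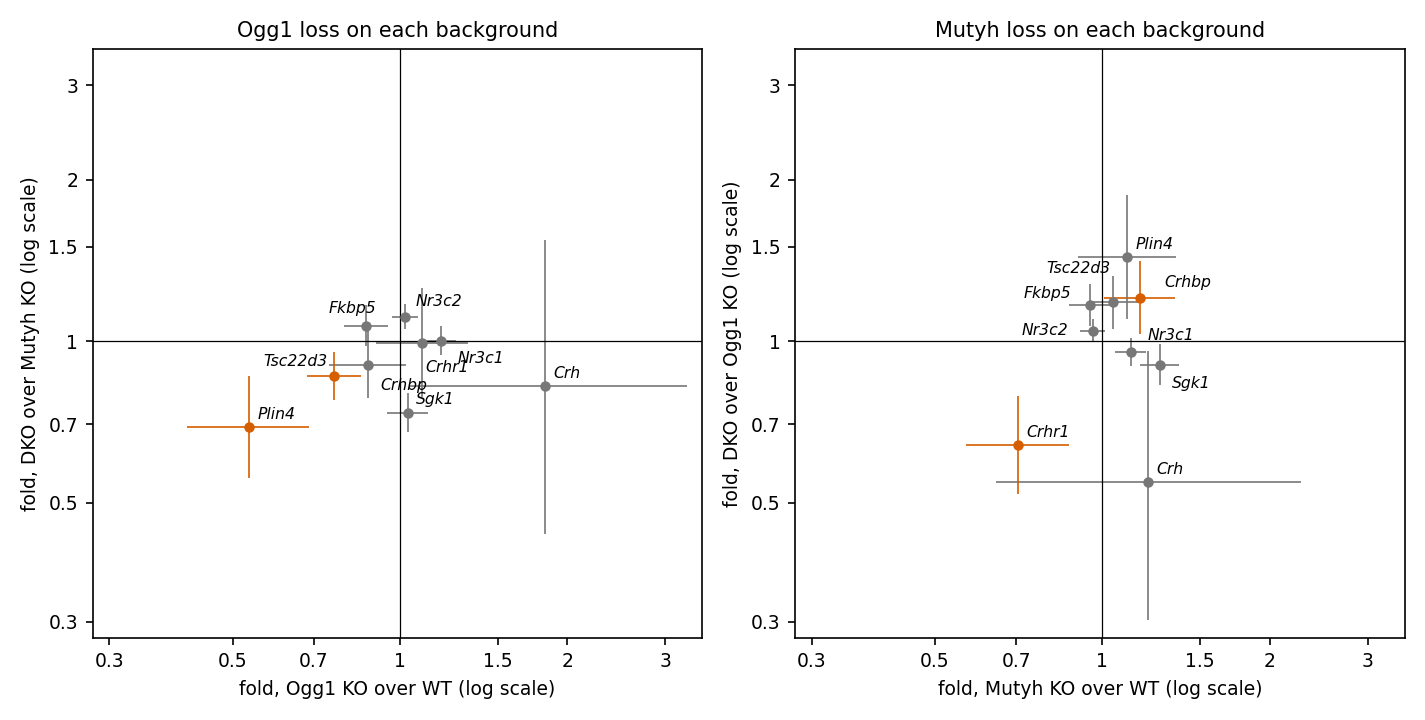
Fold for the loss of Ogg1 (left) and of Mutyh (right) on both log axes: the single knockout over WT across and the DKO over the other single knockout up, with exact 95% counting intervals. Orange points have both intervals on the same side of 1: Tsc22d3 and Plin4 for Ogg1 loss, and Crhr1 and Crhbp for Mutyh loss.

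A departure of DKO from the product of the single-knockout folds was computed for each gene as a log2 difference. Its interval excluded 0 for 4 of the 9 genes, where 34.9% of compared genes had such an interval. Sgk1 had a departure of -0.49 (-0.66 to -0.32), which 12.3% of genes reached, as its DKO level lay below what the single knockouts multiply to. Nr3c1 had -0.24 (-0.37 to -0.11), Fkbp5 had 0.30 (0.12 to 0.48) and Nr3c2 had 0.12 (0.02 to 0.23). Crh had the largest departure in size, at -1.15, but its counting interval, from -2.29 to 0.0011, held 0.

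For 3 genes whose highest and lowest libraries lay at least 1.5-fold apart, the compared genes with the nearest pattern over the 4 libraries were sought by Euclidean distance of centred log2 RPM, among genes averaging at least 100 reads. Nearest to Plin4 were Baiap3 at a distance of 0.121, Gm7120 at 0.191 and Fads6 at 0.198. Baiap3 had 283 reads in the library labelled Ogg1 KO, 536 in Mutyh KO, 404 in DKO and 505 in WT. Nearest to Crhr1 were Syndig1l at 0.149, 2810459M11Rik at 0.172 and Med8 at 0.173, and nearest to Crh were Frg1 at 0.155, Gm14327 at 0.162 and Atox1 at 0.185. These distances rest on 4 points each, and no gene lay within 0.1 of any of the 3. Crh itself had only 21 to 36 reads per library, under the minimum of 100 set for the other genes. Its nearest patterns are therefore open to counting error.

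Other genes of the pathway were read from 4 lists. Chaperones and coregulators of the steroid receptors, which fold the receptor and link it to transcription, had 15 of 15 genes compared and none 1.5-fold from WT in any knockout library, where 4.69%, 5.25% and 4.19% of all compared genes were in Ogg1 KO, Mutyh KO and DKO. Intervals lay below 1 for 9, 8 and 7 of the 15 in those libraries, where 16.2%, 16.4% and 17.2% of all genes had such an interval. They lay above 1 for 2, 3 and 2 of the 15, where 21.4%, 19.8% and 16.2% of all genes had such an interval. Counting intervals narrow with depth, and this list ran from 575 reads (Nrip1 in Ogg1 KO) to 42445 (Hspa8 in WT). Depth was not matched between the list and all genes, and the comparisons share the WT library, so the contrast in shares is not a result about these genes. Of the 15, 10 were lower than WT in the library labelled Ogg1 KO, 11 were in Mutyh KO and 9 were in DKO, with median log2 folds of -0.16, -0.08 and -0.06, beside 0.02, 0.01 and -0.00 for all genes. Steroid metabolism and transport had 12 symbols, of which 9 were found and 7 were compared, and only Akr1c18, a hydroxysteroid dehydrogenase, passed 1.5-fold. Akr1c18 had 26 reads in Ogg1 KO, 25 in Mutyh KO, 34 in DKO and 45 in WT, and its fold over WT was 0.615 (0.364 to 1.02), 0.587 (0.345 to 0.978) and 0.752 (0.467 to 1.20) for those libraries in that order.

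The list of the CRH family and pituitary-adrenal axis had 16 symbols, of which 15 were found and 6 were compared. Pituitary markers summed to 2.06 RPM in the library labelled Ogg1 KO, 1.22 in Mutyh KO, 20.4 in DKO and 0.773 in WT, with 6 of 7 higher in DKO than in WT and Fshb at 0 in both. Pomc and Avp of this list were below the filter and are named after their values were seen: Pomc had 11 reads in Ogg1 KO, 5 in Mutyh KO, 38 in DKO and 6 in WT, and Avp had 8, 2, 21 and 2 in the same order. The part of pituitary RNA in these counts was not tested. Crhr2, the other CRH receptor, which prefers urocortins, had 99 reads in the library labelled Ogg1 KO, 135 in Mutyh KO, 65 in DKO and 48 in WT. Its fold over WT was 2.20 (1.54 to 3.17) for Ogg1 KO, 2.97 (2.12 to 4.22) for Mutyh KO and 1.35 (0.914 to 1.9999) for DKO, unlike Crhr1, which was 0.704 in Mutyh KO. Crhr2 is also expressed in choroid plexus, whose summed markers were 5020, 5064 and 2609 RPM in those libraries against 549 in WT, and the part of that tissue in the Crhr2 level was not tested. Mc4r, a melanocortin receptor, had 67 reads in Ogg1 KO, 74 in Mutyh KO, 86 in DKO and 137 in WT. Its fold over WT was 0.520 (0.383 to 0.702) for Ogg1 KO, 0.571 (0.424 to 0.763) for Mutyh KO and 0.625 (0.471 to 0.824) for DKO, so all 3 knockout libraries lay below the shared WT library.

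Beyond the 4 members, 24 of 26 other glucocorticoid-induced genes were compared. None was 1.5-fold above WT in any knockout library, where 3.27%, 4.77% and 3.26% of all compared genes were for Ogg1 KO, Mutyh KO and DKO. Txnip in Mutyh KO lay just under that line, at 1.497 (1.32 to 1.70), so the count in that library depends on the exact threshold. Those 1.5-fold below WT were 2 of the 24 in Ogg1 KO (1.41% of all genes), 1 in Mutyh KO (0.478%) and 1 in DKO (0.934%). In the library labelled Ogg1 KO 15 were lower than WT, in Mutyh KO 13 and in DKO 19, with median log2 folds of -0.12, -0.03 and -0.10, beside 0.02, 0.01 and -0.00 for all genes. Lcn2, a secreted lipocalin that also responds to inflammation, had 3 reads in Ogg1 KO, 21 in Mutyh KO, 7 in DKO and 57 in WT. It passed the filter only through WT, at a mean of 1.45 RPKM and of 0.698 RPKM without WT, so its low values in the knockout libraries were favoured by the filter. Lcn2 was 1 of the 2 genes counted as 1.5-fold below WT in Ogg1 KO, and the only 1 in Mutyh KO and in DKO. Those counts were thus favoured by the filter too and cannot be weighed against the shares of all genes. Its fold over WT was 0.0560 (0.0112 to 0.172) for Ogg1 KO, 0.389 (0.224 to 0.652) for Mutyh KO and 0.122 (0.0470 to 0.269) for DKO. Cebpd, a transcription factor, had 140 reads in Ogg1 KO, 181 in Mutyh KO, 247 in DKO and 248 in WT. Its fold over WT was 0.601 (0.485 to 0.742) for Ogg1 KO, 0.771 (0.633 to 0.938) for Mutyh KO and 0.991 (0.828 to 1.19) for DKO. Over the 24 genes the lowest library was Ogg1 KO for 10, Mutyh KO for 1, DKO for 11 and WT for 2. The same count over all compared genes was not made, so these numbers cannot be read as particular to the list.

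**Figure D5:**
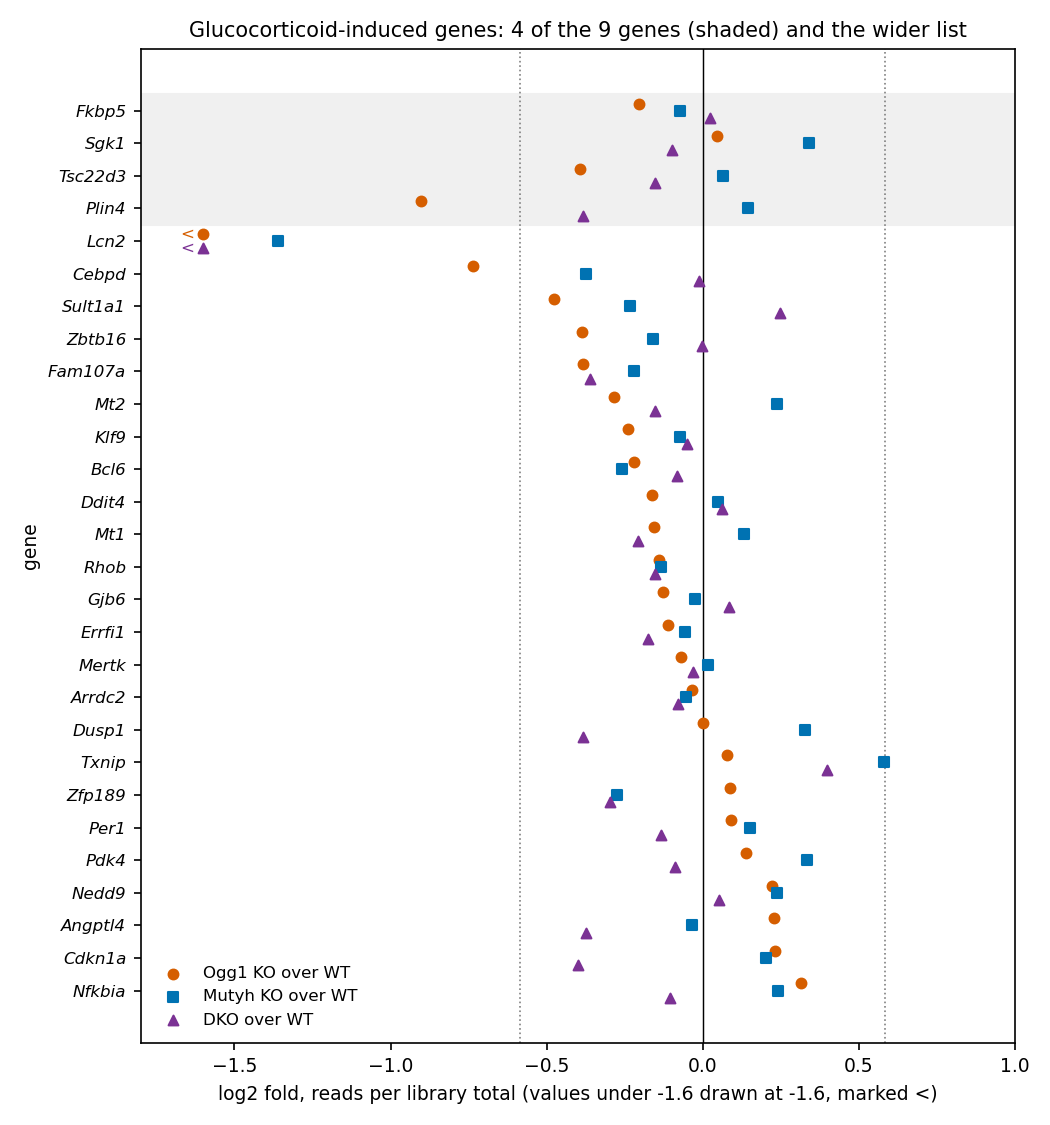
Log2 fold over WT of the 4 glucocorticoid-induced members (shaded) and 24 other glucocorticoid-induced genes, 1 symbol for each knockout library, with dotted lines at 1.5-fold. Plin4 and Cebpd in Ogg1 KO and Lcn2 in all 3 knockout libraries pass the lower dotted line, and no symbol passes the upper one; Lcn2 is among the compared genes only through its WT level of 3.69 RPKM.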

How the data were processed

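Hippocampal RNA of 4 genotypes was measured by sequencing, with 1 library each. The authors deposited a count of unique reads per gene, the gene length, coverage as a percent of that length (a meaning read from the column name) and RPKM, per the file headers. RPKM equalled reads scaled to gene length and library total. The build was mm9 per the submitters' processing notes. The aligner, the counter and strand handling are not given in the sources used here.

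Folds were ratios of reads per library total, with exact conditional 95% intervals (SciPy 1.17.1) for counting error only. Genes averaging at least 1 RPKM and having reads were compared, and a gene was called at 1.5-fold or more. No p-value was computed. The calculation was tested on simulated data. TMM factors came from edgeR 4.0.16 and size factors from DESeq2 1.42.0, as alternatives, beside other pseudocounts, filters and folds. The genes named are the 9 members, Ogg1 and Mutyh, list genes at least 1.5-fold from WT (at most 3 furthest each way) and the 3 nearest patterns. Xist, Ddx3y, Otp, Fshb, Pomc, Avp, Hdgfl2, Txnip, some single markers and marker sums are given beside the results they touch. Txnip and the single markers were picked after their values were seen. The members, gene lists and thresholds were chosen with earlier results of these data known.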

Additional observations from a re-analysis of the deposited data

How the results depend on the processing

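Across TMM, median-of-ratios, reduced library totals and pseudocounts of 0.1 and 1 RPKM, 224 of 225 member folds moved by less than their counting interval. The exception was Plin4 in Ogg1 KO over WT, 0.699 with a pseudocount of 1 RPKM, against 0.535. With that pseudocount 0 of the 9 genes passed 1.5-fold in Ogg1 KO over WT and 0 in DKO over Ogg1 KO, against 2 in each. A pseudocount shrinks the folds of weakly expressed genes by construction. In 3 cases a fold changed direction, with a log2 size of at most 0.0093. TMM and median-of-ratios scaling left 1 gene (Crhr1) on the same side of 1 in both Mutyh-loss comparisons, against 2, since the lower bound of Crhbp fell below 1. Genes past the fold, for Ogg1 KO, Mutyh KO and DKO over WT and then DKO over Ogg1 KO and over Mutyh KO, numbered 617, 691, 552, 459 and 359. They numbered 294, 327, 265, 210 and 178 with a pseudocount of 1 RPKM, 1985, 2156, 1925, 1814 and 1632 with no filter, 186, 223, 185, 103 and 104 at 2-fold, and 2180, 2047, 1857, 1818 and 1260 under a threshold looser than 1.5-fold. The alternatives on intervals were chosen after seeing the data. No paired analysis was possible because each genotype has 1 library and the labels give no replicate numbers. Depth limits Crh most, at 21 to 36 reads.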
